A study of Mus musculus with 44 samples.

Results

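The comparison described here set 4 ATAC-seq libraries of mouse cortical neurons that lacked their own Smarcc2 and carried Smarcc2 with the S586E substitution against 4 libraries of Smarcc2-knockout neurons that carried the vector. The 8 libraries were taken by their labels from the 44 of the series. Primary neurons from the cortex of E16.5 mouse embryos were kept for 18 days in vitro, and each genotype had 2 libraries of neurons depolarized with 50 mM KCl for 30 min and 2 of unstimulated neurons. Per the labels, tetrodotoxin and D-AP5 silenced the neurons of both states overnight beforehand, and DNase was added to the wells. Smarcc2 was knocked out in both genotypes, so the vector group is a knockout and not a normal control, and how the gene was removed is not stated in the labels. Add-back of wild-type Smarcc2, add-back of S586A (all in knockout neurons) and neurons with a non-targeting gRNA had 4 libraries each in the same experiment, and they are given beside the results. The labels do not state a promoter for the constructs or the share of cells that carried them. The cortex of an embryo counted as a biological replicate, but no label ties a library to an embryo, so the spread between libraries may be partly technical.

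ATAC-seq reads DNA that a transposase can reach, which marks active promoters and enhancers. The BAF complex is an ATP-driven remodeller that slides or evicts nucleosomes and keeps many enhancers open, and Smarcc2 (BAF170) is one of its core scaffold subunits. In the cortex, BAF complexes change subunits as progenitors become neurons and take part in the genomic response to synaptic activity. A glutamate in place of a serine is widely used to imitate a phosphorylated residue, and an alanine to prevent phosphorylation.

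Because the lists differ in depth, libraries were compared by rank. Every summit of the 19 autosomes was ranked by its −log10 p, each list was cut to its best 233647 summits, and 500 bp windows were placed on the summits of the best 75000. A region's rank score in each library is the log2 of 233647 divided by the rank of its best summit, so a score 1 higher means a rank nearer to the top by a factor of 2. A score of 0 means that no summit was listed in the window. Of 97786 regions, 85143 were tested because at least 2 libraries held them among their best 75000 summits. Of these, 20317 were gene ends, at most 1 kb from the start or the end of a protein-coding gene. Another 58800 lay farther out but inside a gene or within 100 kb of one (distal regions), and 6026 lay outside genes and more than 100 kb from any. Regions are named after the nearest protein-coding gene, which need not be the gene they act on. Changes are S586E minus vector in rank score, ± SE, from a limma fit over all 20 libraries of 18 days in vitro, and a region was called at a Benjamini-Hochberg adjusted p under 0.05. A peak list holds no read counts, so depth is known only through the background level and the length of each list, and a score cannot tell a smaller share of cells with an open region from less signal per cell.

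The signal over the Smarcc2 locus followed the labels. Exons of Smarcc2 gave a highest fold enrichment of 119.5 and 131.4 in unstimulated and of 182.6 and 205.5 in depolarized S586E libraries, against 0.0 and 3.0 in unstimulated and 2.5 and 3.4 in depolarized vector libraries. Wild-type (167.8 to 252.1) and S586A libraries (375.5 to 446.6) were high there too and non-targeting libraries had no summit, and the locus was left out of every other result. The 8 lists held 165089 to 248661 intervals. The background level of the S586E libraries was 0.942 and 2.24 (unstimulated) and 1.77 and 2.20 (depolarized), and that of the vector libraries was 1.69 to 1.99. Replicate 1 of unstimulated S586E was the shallowest of the 20 libraries, and its rank scores correlated less with its partner (r = 0.899 across regions) than those of the other 3 pairs (0.942 to 0.957). Marker gene ends of excitatory neurons were listed in all libraries, with none of 18 genes at 0, and gene ends of 7 of 15 oligodendrocyte-lineage, 12 of 16 astrocyte and 3 of 15 microglial genes were also among the tested regions.

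The promoters of 4 genes whose gene-end regions separate the groups are shown first. Olig2 and Cops4 lay higher in S586E than in vector libraries, and Neurod2 and Pcsk1 lay lower. Capitals mark GGGCGG on either strand, the core of a GC box, and TGACGTCA, the full site of CREB-family factors, which is its own reverse complement. The sequences come from the RefSeq promoter table (GRCm38.p6) and run from 250 bases before to 50 bases after the start of each gene, on the strand named.
Olig2, chr16:91225300-91225599, plus strand: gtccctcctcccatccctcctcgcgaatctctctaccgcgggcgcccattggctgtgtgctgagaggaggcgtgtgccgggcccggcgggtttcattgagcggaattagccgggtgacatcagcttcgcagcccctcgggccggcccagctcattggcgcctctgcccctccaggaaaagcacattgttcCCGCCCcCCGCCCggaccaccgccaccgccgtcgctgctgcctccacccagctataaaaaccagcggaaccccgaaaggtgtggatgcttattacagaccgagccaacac
Cops4, chr5:100518059-100518358, plus strand: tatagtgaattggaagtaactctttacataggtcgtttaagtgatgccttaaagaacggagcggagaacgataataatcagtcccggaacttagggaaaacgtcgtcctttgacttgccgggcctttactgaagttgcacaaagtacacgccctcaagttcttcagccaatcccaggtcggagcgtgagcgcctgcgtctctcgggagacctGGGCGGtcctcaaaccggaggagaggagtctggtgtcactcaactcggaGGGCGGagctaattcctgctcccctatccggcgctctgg
Neurod2, chr11:98329596-98329895, minus strand: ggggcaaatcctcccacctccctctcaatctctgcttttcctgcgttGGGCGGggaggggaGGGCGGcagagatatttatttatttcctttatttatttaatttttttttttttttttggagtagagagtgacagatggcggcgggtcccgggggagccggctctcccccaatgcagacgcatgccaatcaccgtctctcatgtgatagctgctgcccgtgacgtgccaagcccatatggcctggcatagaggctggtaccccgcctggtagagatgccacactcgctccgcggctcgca
Pcsk1, chr13:75089607-75089906, plus strand: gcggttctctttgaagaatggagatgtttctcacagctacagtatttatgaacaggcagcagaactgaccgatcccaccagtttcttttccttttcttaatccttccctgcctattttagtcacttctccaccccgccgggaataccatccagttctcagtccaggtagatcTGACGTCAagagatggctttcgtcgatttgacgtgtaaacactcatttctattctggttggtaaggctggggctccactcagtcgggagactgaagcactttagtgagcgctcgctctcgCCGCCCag
Olig2 and Cops4 each held 2 GC boxes, as did Neurod2, and Pcsk1 held 1 beside its TGACGTCA. The G and C content was 65% for Olig2, 53.3% for Cops4, 55.3% for Neurod2 and 49.3% for Pcsk1. Over all gene-end promoters that matched a tested region, GGGCGG was present in 145 of 215 promoters called higher (67.4%), in 158 of 273 called lower (57.9%) and in 70% of the 8602 tested, and in 35.7% of the 32851 promoters of the table. TGACGTCA was present in 1.86% of promoters called higher, 3.66% of those called lower, 3.58% of those tested and 1.79% of the table. These shares are descriptions, and no difference between them was tested.

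Over both states, called regions away from gene ends lay mostly higher with S586E than with vector, while called gene ends lay mostly lower. Of the regions called higher over both states, 56% lay inside a gene, against 59.2% of all tested. In unstimulated neurons, 3208 regions lay higher in S586E than in vector libraries and 2102 lay lower, so 6.24% of all regions tested were called. By whole intervals the unstimulated split turned, with 1714 higher and 1843 lower, and distal regions alone gave 1371 and 1388. In depolarized neurons, 3662 lay higher and 373 lower by the summits (4.74% called), and gene ends were 164 higher and 80 lower. That split was 1100 higher and 1004 lower with lists cut to 75000 summits and 102 and 75 with 30000, and by whole intervals gene ends were 60 higher and 59 lower. Over the mean of both states, 10513 lay higher and 4286 lower (17.4% called). The median change over all regions was 0.02 in unstimulated and 0.11 in depolarized neurons, and in depolarized neurons it was −0.09 at gene ends and 0.19 at distal regions. With each kind of region centred on its own median in each library, 5337 regions were called in unstimulated, 2311 in depolarized and 13706 over both states, and the share of calls that lay higher was 44.6%, 75.8% and 53.3%, against 60.4%, 90.8% and 71% without centring.

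The counts of each state alone rested on single libraries. The unstimulated count was 1562 without replicate 1 of unstimulated S586E (1102 higher and 460 lower), 9800 without its replicate 2 (4130 higher and 5670 lower), and 1292 and 1206 without either vector library of that state. The depolarized count was 1246 and 686 without either S586E library of that state and 1069 and 527 without either vector library. Without any 1 of the 8 libraries the count over both states was 8892 to 17833, lowest without vector depolarized replicate 2, and it was also over 1.5 times lower without S586E depolarized replicate 2 (9014).

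Each state held its direction in the libraries of the other state, which it does not share. Of the 3208 regions higher in unstimulated S586E neurons, 94.5% also had a positive change in depolarized neurons, where 57.8% of all regions tested did, and 1065 were called there too. Of the 2102 lower regions, 84.9% had a negative change in depolarized neurons, against 42% of all regions tested, and 78 were called. Of the regions called in depolarized neurons, 92.8% of those higher and 76.4% of those lower kept their sign in unstimulated neurons, where 51.6% and 48.4% of all regions had it.

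The directions differed with distance from a gene end. Within 1 kb, 3.12% of regions lay higher and 5.24% lower over both states. From 1 to 5 kb the shares were 7.88% and 7.4%, from 5 to 20 kb 15.8% and 5.29%, and beyond 100 kb 18.9% and 3.48%. That last bin of 11217 regions also holds distal regions deep inside long genes. Higher regions lay at a median of 27 kb from the nearest gene end and lower ones at 5.23 kb, against 10.1 kb for all tested. Of higher regions 6.02% were gene ends and of lower ones 24.8%, against 23.9% of all tested. In whole lists the same shift showed without any call. Gene ends made up 33.9% and 32.8% of the best 75000 summits in unstimulated S586E libraries, against 35.1% and 36.3% in unstimulated vector libraries, and 37.3% and 37.9% in depolarized S586E libraries, against 41.0% and 41.0% in depolarized vector libraries. The S586E libraries lay below the vector libraries in both states without overlap, by 2.92 percentage points (exact permutation test within states, two-sided p = 0.0556, the smallest that 36 arrangements allow, and 0.222 after adjustment over 4 measures of whole lists). The number of intervals (26332 more per S586E list, exact p = 0.167), the length covered (7.81 Mb more, exact p = 0.389) and the background level (0.06 lower, exact p = 0.889) had adjusted p of 0.333, 0.519 and 0.889, so none of the 4 measures passed.

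**Figure D1:**
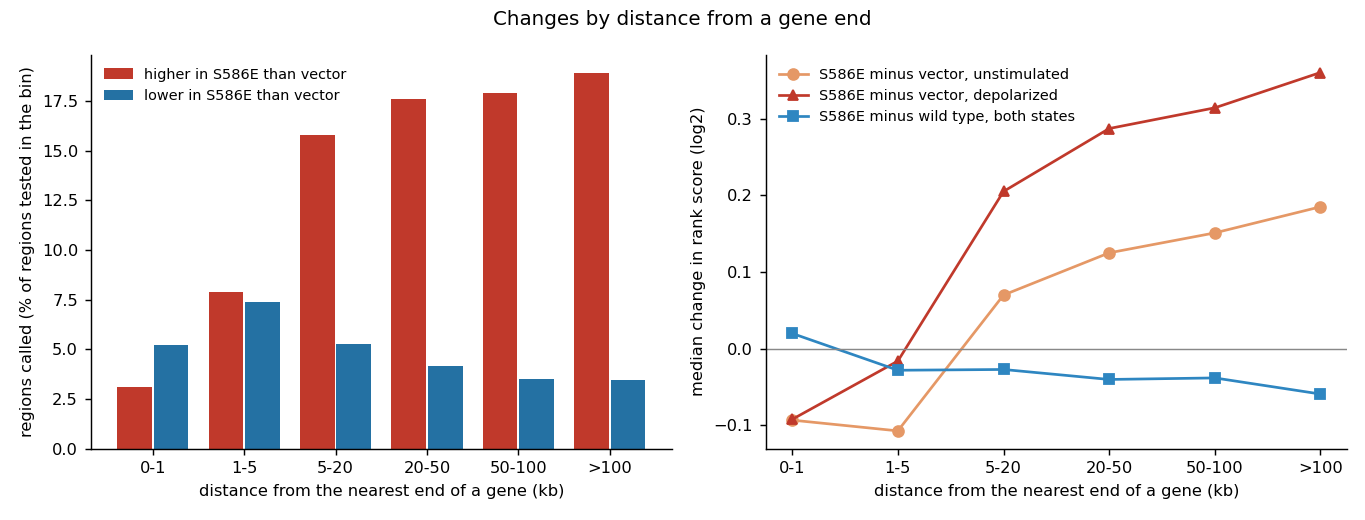
Left, percent of the tested regions in each bin of distance from a gene end that were called higher (red) or lower (blue) in S586E than in vector libraries over both states. Right, median change in rank score in each bin for S586E minus vector in unstimulated (orange circles) and depolarized neurons (red triangles) and for S586E minus wild-type add-back (blue squares). The share called higher was 3.12% within 1 kb and 18.9% beyond 100 kb, while the S586E minus wild-type median stayed between −0.06 and 0.02.

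In regions called higher, S586E libraries stood close to the other add-backs, and in regions called lower their medians stood below those of the other add-backs in both states. Regions called higher had a median rank score of 2.44 and 2.41 in unstimulated S586E libraries, against 1.47 and 1.42 in unstimulated vector libraries. Their group medians were 2.40 with wild-type add-back, 2.37 with S586A and 2.38 with the non-targeting gRNA. In depolarized neurons the medians were 2.09 for S586E, 1.89 for wild type, 1.99 for S586A and 1.81 for non-targeting, against 1.01 for vector. Regions called lower had a median of 1.48 for S586E, 1.82 for wild type, 1.89 for S586A and 1.88 for non-targeting in unstimulated neurons, against 2.61 and 2.60 in the unstimulated vector libraries. The unstimulated S586E libraries held 1.35 in the shallow replicate 1 and 1.67 in replicate 2. In depolarized neurons these medians were 1.80 for S586E, 2.01 for wild type, 2.02 for S586A and 2.12 for non-targeting, against 2.56 for vector. These sets were chosen by the S586E and vector libraries, and low S586E scores helped to choose the lower set. Levels in those 2 groups, and the place of S586E beside the other add-backs, are therefore descriptions only. The same fit called 10998 regions higher and 3312 lower in wild-type add-back than in vector (16.8% called), and 13883 higher and 3181 lower in S586A than in vector (20% called). All 3 contrasts share the vector libraries.

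**Figure D2:**
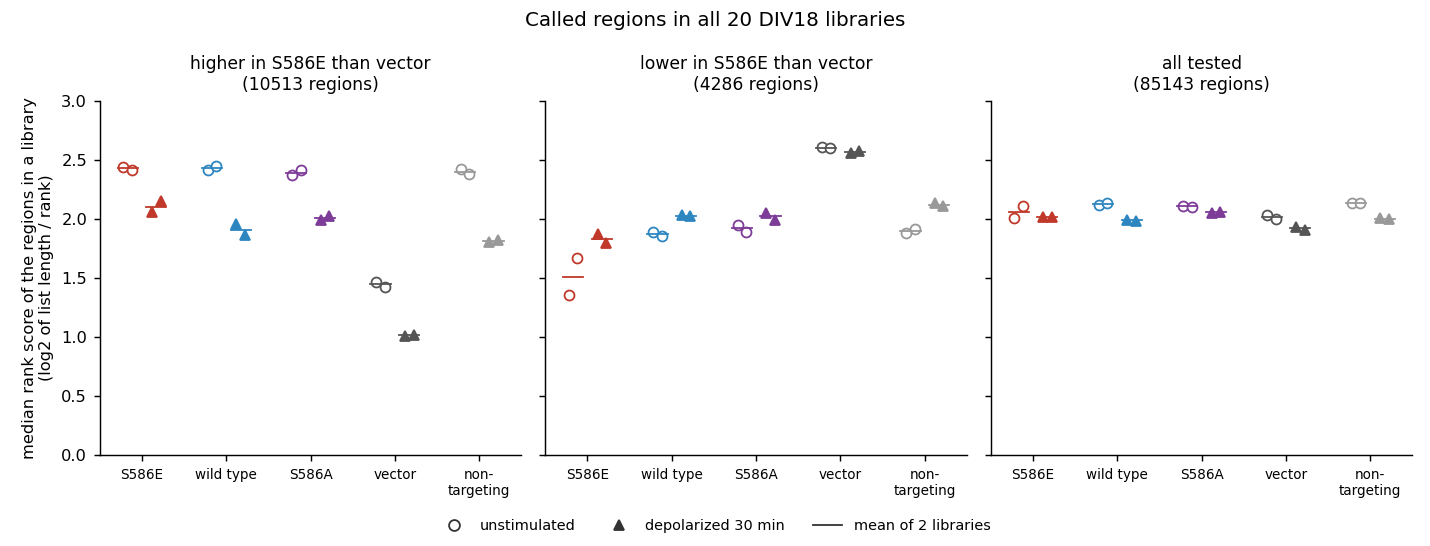
Median rank score in each of 20 libraries of the regions called higher (left) or lower (middle) in S586E than in vector over both states, and of all regions tested (right). Open circles are unstimulated and filled triangles depolarized libraries, and bars are means of 2. The vector libraries stand apart from the 4 other groups in the left and middle panels, at 1.01 to 1.47 and at 2.56 to 2.61, and the regions were chosen on the S586E and vector libraries.

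A direct test between S586E and wild-type add-back called 8 regions over both states, 4 higher and 4 lower (0.0094% of all tested), and 6215 had an unadjusted p under 0.05. The whole-interval unit called 35, and 2 regions were called with the same sign by both units (0.00235%), a rule added after the data were seen. Against S586A, 432 regions lay higher and 50 lower in S586E (0.566% called), and 239 of these were called by both units (0.281%). The median SE of a change over both states was 0.25, which limits what the test of 4 against 4 libraries could detect.

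The first of the 2 regions that differed from wild type lay inside Farp1, which encodes a FERM-domain guanine exchange factor of dendrites, at chr14:121198903-121199402 (mm10), 84.6 kb from a gene end. Its rank score was 4.76 and 4.41 in unstimulated and 2.54 and 3.83 in depolarized S586E libraries, against 2.61 and 3.50 in unstimulated and 1.43 and 1.04 in depolarized wild-type libraries. All S586E libraries lay above the wild-type libraries of their state. The change from wild type was 1.74 ± 0.27 (adjusted p = 0.0167), and it was 1.66 (adjusted p = 0.05) without replicate 1 of unstimulated S586E and 0.89 (adjusted p = 0.117) when lists were cut to 30000 summits. Against vector libraries, which held 1.58 and 1.26 in unstimulated and 0.76 and 0.49 in depolarized neurons, the change was 2.86 ± 0.27 (adjusted p = 3.77e-06).

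The second was the gene end of Cops4, a subunit of the COP9 signalosome, at chr5:100518067-100518566, over the promoter printed above. S586E libraries held 8.67 and 8.32 in unstimulated and 7.49 and 7.68 in depolarized neurons, against 7.11 and 7.06 in unstimulated and 6.73 and 6.66 in depolarized wild-type libraries. The change from wild type was 1.15 ± 0.18 (adjusted p = 0.0167), and the adjusted p was 0.0646 when lists were cut to 30000 summits. S586A libraries held 8.23, 8.67, 7.57 and 8.09, and the S586E minus S586A change was −0.10 ± 0.18 (adjusted p = 0.858). The S586A values lay above the wild-type values of their state, a difference not tested here, while vector (7.10, 7.09, 7.04 and 6.65) and non-targeting libraries (7.41, 7.44, 6.67 and 6.97) lay nearer to wild type. S586E lay above vector by 1.07 ± 0.18 (adjusted p = 0.000532).

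To name regions, calls were read by the summit and by whole intervals, because a summit that moves within an interval can empty a window. By this rule 6631 regions lay higher and 2891 lower in S586E than in vector over both states (11.2% of all tested called), 1571 and 1153 in unstimulated (3.2%) and 1626 and 153 in depolarized neurons (2.09%). Unless stated, the regions named below passed it over both states, and their adjusted p is that of the summits. Apart from 28 genes followed whatever their result, regions were named for large changes with libraries of the 2 groups apart. A lack of overlap in them is therefore a description. Over all 85143 regions tested, the S586E and vector libraries did not overlap at 9899.

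Some of the higher regions were weak or not listed in vector libraries and open in all other groups. Of the 10513 regions called higher over both states by the summits, 155 were listed in no vector library. Each vector library listed 82.9% to 93.9% of the 10513. The distal region of Panx1, a large-pore membrane channel, at chr9:14965398-14965897, held 3.71 and 3.37 in unstimulated and 3.43 and 3.42 in depolarized S586E libraries, against 1.28 and 1.18 in unstimulated and 0.44 and 0.86 in depolarized vector libraries. The groups did not overlap, and the change was 2.54 ± 0.19 (adjusted p = 6.2e-08). The region inside Ptgs1, which encodes a cyclooxygenase, at chr2:36222340-36222839, held 3.43, 3.37, 2.14 and 2.15 in S586E libraries, against 0.36, 0.70, 0.00 and 0.00 in vector libraries (2.51 ± 0.19, adjusted p = 7.19e-08). Non-targeting libraries held 3.82, 3.65, 2.37 and 2.51 there, and the S586E minus wild-type change was −0.12 ± 0.19 (adjusted p = 0.933). A region inside Tns3, a focal adhesion gene, gave a change of the same order (2.37 ± 0.29, adjusted p = 5.02e-05), with vector libraries between 0.00 and 1.22.

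Distal regions of 4 BAF genes are named here. The region 55.2 kb from Brd7, a subunit of the PBAF form, held 4.24, 3.93, 2.98 and 3.02 in S586E libraries, against 2.78, 2.21, 2.23 and 1.29 in vector libraries (1.41 ± 0.23, adjusted p = 0.000362). Distal regions of Smarca4, the catalytic ATPase (1.23 ± 0.25), Arid1a, a subunit of the canonical form (1.13 ± 0.18), and Smarcc1, the scaffold paralog of Smarcc2 (1.16 ± 0.24), also lay higher. Of 204 distal regions of the 30 BAF genes listed, 8 lay higher and 6 lower by both units, and of 55 gene ends none lay higher and 3 lower, against 9.29% higher and 3.78% lower of all distal regions and 1.49% and 2.41% of all gene ends.

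Distal regions of single neuronal and activity genes lay higher as well, some of them already open in vector libraries. They were named for large changes, and their lists held a smaller share of higher calls than all distal regions. By both units, 17 of 425 distal regions of early activity genes lay higher and 7 lower. Late activity genes gave 14 and 9 of 251, and synapse and excitability genes 28 and 20 of 602. Excitatory neuron genes gave 9 and 10 of 179, against 9.29% higher and 3.78% lower of all distal regions. The region 85.4 kb from Neurod6, a transcription factor of excitatory cortical neurons, held 3.43, 3.73, 3.81 and 3.32 in S586E libraries, against 2.53, 2.73, 2.19 and 0.94 in vector libraries (1.47 ± 0.26, adjusted p = 0.000673). The groups did not overlap. Gabrb2, a GABA-A receptor subunit (1.46 ± 0.23), Igf1, a growth factor (1.26 ± 0.24), Stac (1.81 ± 0.27) and Jun, a component of AP-1 (1.39 ± 0.25), each had a distal region that lay higher. A region 5.67 kb from Fos, the AP-1 partner of Jun, held 3.91 and 2.94 in unstimulated S586E libraries, against 1.80 and 0.00 in unstimulated vector libraries, and 4.95 and 4.46 in depolarized S586E libraries, against 3.89 and 4.05 in depolarized vector libraries (1.63 ± 0.28, adjusted p = 0.000606). Regions near Hes1 (1.41 ± 0.24) and inside Notch2 (1.64 ± 0.23), both of the Notch pathway of progenitors, and inside Cdh5, an endothelial cadherin (1.70 ± 0.25), lay higher as well. For all of these, the S586E minus wild-type change had an adjusted p of 0.739 or more, apart from Smarcc1 (0.51 ± 0.24, adjusted p = 0.665).

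A second kind of higher region was near 0 in both vector and non-targeting libraries. Of the 85143 regions tested, 68 were listed in all 4 S586E libraries and in none of the 8 vector and non-targeting libraries. Of these 68, 60 were distal and 3 were gene ends. They were listed unevenly in the other add-backs, 68 in replicate 2 of unstimulated wild type, 31 in its replicate 1, 47 and 16 in the depolarized wild-type libraries, and 6, 10, 5 and 22 in the S586A libraries. These regions were picked for this pattern, and the counts are a description. Without regard to the non-targeting libraries, 167 of the 85143 regions were listed in all 4 S586E libraries and in no vector library, and 4 were listed in all 4 vector libraries and in no S586E library. Over all regions tested, depolarized vector libraries listed 94.5% and 93.7%, against 98.7% and 98.4% in depolarized S586E libraries. Unstimulated vector libraries listed 97% and 97.1%, against 96.4% and 98.1% in unstimulated S586E libraries.

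Genes of the oligodendrocyte lineage, the glia that arise from precursors marked by Pdgfra and Cspg4 and later make myelin, gave several of the named higher regions, since regions were named for each gene list. The gene end of Gpr17, a receptor of committed precursors, held 2.28 and 2.75 in unstimulated and 1.58 and 2.50 in depolarized S586E libraries, against 0.00 in each of the 4 vector libraries. It was 0.00 in the 4 non-targeting and the 4 S586A libraries as well, and 0.02, 1.90, 0.99 and 0.00 in wild-type libraries. The change from vector was 2.27 ± 0.32 (adjusted p = 0.00013) and that from S586A was 2.27 ± 0.32 (adjusted p = 0.000862), while that from wild type was 1.55 ± 0.32 (adjusted p = 0.153).

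A region inside Pdgfra, a growth factor receptor, at chr5:75163255-75163754, held 2.91, 1.90, 1.41 and 1.59 in S586E libraries, against 0.00 in each vector library (1.95 ± 0.28, adjusted p = 0.000142). A region inside Cspg4, the NG2 proteoglycan, at chr9:56881491-56881990, held 1.35, 2.71, 1.10 and 2.70, against 0.00 in each vector library (1.97 ± 0.34, adjusted p = 0.000646). Bcas1, a marker of early myelinating cells, held 2.00, 1.81, 1.10 and 2.19 at a region inside it, against 0.00 in each vector library (1.78 ± 0.29, adjusted p = 0.000408). In each of these 3 regions the S586E libraries lay above all vector libraries, and replicate 2 of unstimulated wild type (1.50, 2.05 and 1.50) lay within the S586E range. All 3 calls were lost with lists cut to 75000 summits, where the changes were 0.38 (adjusted p = 0.105) for Pdgfra, 0.53 (adjusted p = 0.139) for Cspg4 and 0.27 (adjusted p = 0.0609) for Bcas1, and each was 0.00 with 30000 summits. The cut to 30000 summits also took the calls of the Gpr17 gene end (0.00) and of the distal regions of Olig1 (0.00), Olig2 (0.33) and Cldn11 (0.20).

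The basic helix-loop-helix genes Olig1 and Olig2, which specify the lineage, followed. A region 4.92 kb from Olig2, at chr16:91233347-91233846, held 3.66, 3.54, 2.19 and 3.02 in S586E libraries, against 0.93, 1.88, 0.44 and 0.13 in vector libraries (2.25 ± 0.34, adjusted p = 0.000205). A region 33.8 kb from Olig1 gave 2.01 ± 0.33 (adjusted p = 0.000421). The gene end of Olig2, at chr16:91225109-91225608 over the promoter printed above, was already open, with 4.10, 4.00, 3.43 and 3.67 in S586E libraries, against 3.35, 3.12, 2.45 and 2.67 in vector libraries (0.90 ± 0.22, adjusted p = 0.00789). Within each state the S586E libraries lay above the vector libraries there.

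Other large changes from low vector levels lay at distal regions of Myt1, a zinc finger factor (3.08 ± 0.39), Fam89a (2.89 ± 0.32), Zfp276 (2.84 ± 0.32), Brinp1 (2.80 ± 0.36), Cldn11, a tight junction protein of myelin (2.65 ± 0.31), and Rnf144a (2.26 ± 0.28). Cldn11 held 2.91, 3.19, 2.31 and 3.54 in S586E libraries, against 0.23, 0.32, 0.32 and 0.49 in vector libraries. Distal regions of Sox6, a factor of both interneurons and oligodendrocyte precursors (1.83 ± 0.34), and of Sox2, a factor of neural stem cells (1.63 ± 0.35), lay higher too, but lost their calls with lists cut to 75000 summits (0.31, adjusted p = 0.185, and 0.33, adjusted p = 0.158) and were 0.00 with 30000. Of Farp1, Fam89a, Zfp276, Myt1, Brinp1, Cldn11, Gpr17, Cspg4, Olig1, Olig2, Pdgfra, Bcas1, Sox6, Sox2 and Rnf144a, each distal region or the Gpr17 gene end also lay higher in S586E than in S586A libraries, with adjusted p between 0.00025 and 0.0335. These regions were picked for high scores in the same S586E libraries, so this is a description. Of the 10513 regions called higher than vector, 413 differed from S586A by that test, and 0.507% of all regions tested lay higher than in S586A.

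**Figure D3:**
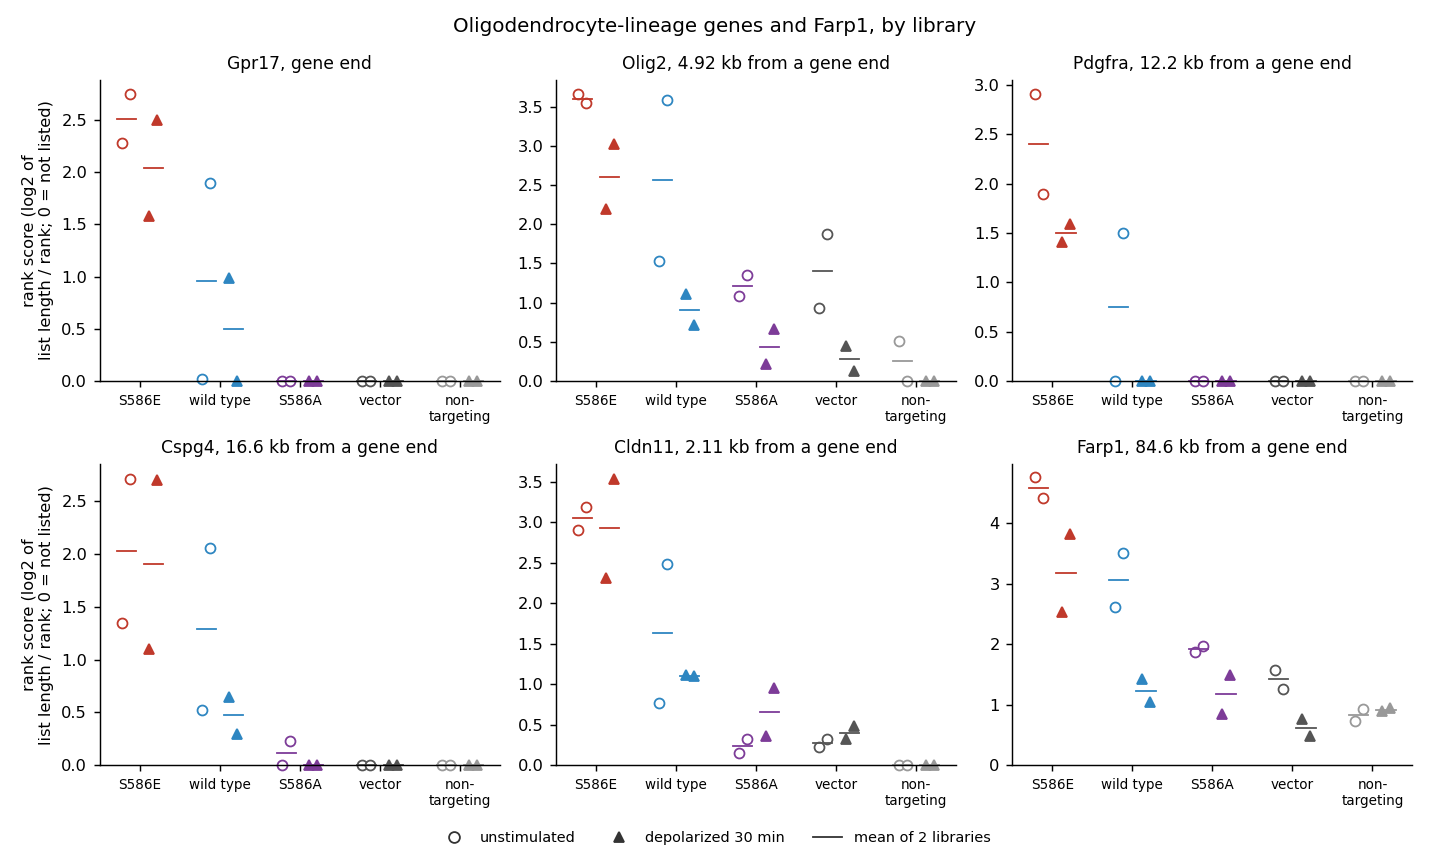
Rank score in each of 20 libraries at regions of Gpr17, Olig2, Pdgfra, Cspg4, Cldn11 and Farp1, by genotype, where 0 means not listed. Open circles are unstimulated and filled triangles depolarized libraries, and bars are means of 2. S586E libraries lie above all vector libraries in each panel, and of the wild-type libraries replicate 2 of unstimulated neurons stands highest in each panel.

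Not every oligodendrocyte region moved this way. Of 11 gene ends of the list, 3 lay higher and none lower by both units, against 1.49% and 2.41% of all gene ends, and of 77 distal regions 16 lay higher and 3 lower, against 9.29% and 3.78% of all distal regions. One of the 3 lay inside Mbp, which encodes a major protein of compact myelin, with 0.00, 0.36, 0.96 and 0.28 in S586E libraries, against 1.74, 1.49, 1.69 and 1.35 in vector libraries (−1.17 ± 0.27, adjusted p = 0.00607). With lists cut to 75000 summits the Mbp change was −0.04 (adjusted p = 0.691), and with 30000 it was 0.00. The oligodendrocyte list was not alone in this. By both units, 19 of 64 distal regions of inhibitory neuron genes lay higher and 2 lower, with a median change of 0.47, against 0.35 for oligodendrocyte distal regions. The summed score of the gene ends of the 7 oligodendrocyte genes with a tested region was 21.9 to 22.5 in unstimulated and 20.3 to 22.9 in depolarized S586E libraries, against 17.9 to 18.1 and 17.6 to 18.98 in vector libraries. It was 17.2 to 23.0 in wild-type, 17.2 to 18.98 in S586A and 14.4 to 17.9 in non-targeting libraries, and 1 of the 7 genes was at 0 in each vector library and none in any S586E library. This sum takes in the gene ends of Gpr17 and Olig2 named above, so it is no separate result. The median change over the 11 gene ends was 0.52 in unstimulated and −0.03 in depolarized neurons. The sum for 12 astrocyte genes was 42.1 to 45.2 in S586E, against 39.2 to 41.6 in vector libraries. The sum for 15 progenitor genes was 47.1 to 49.6 in unstimulated and 48.68 to 48.72 in depolarized S586E libraries, against 41.9 to 44.1 in unstimulated and 47.2 to 47.98 in depolarized vector libraries. In unstimulated neurons it was 42.8 to 48.4 in wild-type, 40.9 to 45.2 in S586A and 37.6 to 41.7 in non-targeting libraries. In depolarized neurons these ranges were 48.45 to 51.4, 47.0 to 47.5 and 45.3 to 48.5. The sum for 18 excitatory neuron genes was 61.1 to 65.7 and 67.5 to 69.1 in S586E libraries (unstimulated and depolarized), against 67.3 to 69.8 and 70.5 to 72.5 in vector libraries. Unstimulated wild-type (64.5 to 65.2), S586A (62.3 to 62.9) and non-targeting libraries (64.2 to 66.3) lay near S586E. When depolarized they held 68.2 to 71.5, 68.3 to 69.2 and 66.9 to 70.6. The sum for 10 inhibitory neuron genes was 21.7 to 22.9 and 24.7 to 26.0 in S586E libraries (unstimulated and depolarized). In vector libraries it was 19.4 to 23.2 and 23.4 to 25.6, so the groups overlapped. The part of cell composition in these results was not tested.

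The largest named decreases in S586E libraries lay near genes of varied roles. At the gene end of Nnat, which encodes the proteolipid neuronatin, at chr2:157562731-157563230, S586E libraries held 2.98, 2.99, 2.95 and 2.65, against 6.59, 5.36, 4.22 and 4.21 in vector libraries (−2.20 ± 0.25, adjusted p = 2.71e-05). At the gene end of Scrt1, a neuronal zinc finger repressor, they held 0.08, 0.96, 0.46 and 0.73, against 2.68, 2.77, 1.47 and 2.41 (−1.78 ± 0.30, adjusted p = 0.000598). The groups overlapped at neither gene end, and standing apart was part of the choice of regions. Distal regions of Vil1 (−2.10 ± 0.32), Gstm6 (−1.91 ± 0.25) and Pak2 (−1.89 ± 0.23) and the gene end of Tbp, the TATA-binding protein (−1.62 ± 0.24), were the other large ones.

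Some gene ends of excitatory neuron and synapse genes lay lower, 5 of 37 and 4 of 58 by both units, against 2.41% of all gene ends. The gene end of Slc17a6, the vesicular glutamate transporter VGLUT2, held 0.22 and 0.53 in unstimulated and 2.14 and 1.55 in depolarized S586E libraries, against 2.25 and 2.56 in unstimulated and 2.45 and 2.94 in depolarized vector libraries (−1.44 ± 0.24, adjusted p = 0.000563). Neurod2, a transcription factor of cortical excitatory neurons, held 2.36, 3.14, 3.53 and 2.59 at chr11:98329400-98329899, over the promoter printed above, against 4.50, 3.90, 4.05 and 3.77 in vector libraries (−1.15 ± 0.23, adjusted p = 0.00191). Both genes had all S586E libraries below all vector libraries. The gene ends of Scn2a, a neuronal sodium channel (−1.19 ± 0.24), and Grin2a, an NMDA receptor subunit (−0.87 ± 0.19), and regions within 2 kb of an end of Grin1, the obligate NMDA receptor subunit (−1.34 ± 0.25), and Tbr1, a factor of deep-layer neurons (−1.05 ± 0.23), also lay lower. None of these differed from wild-type add-back by the direct test (adjusted p 0.638 or more).

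Of the late activity genes, 5 of 52 gene ends lay lower and none higher by both units, against 2.41% and 1.49% of all gene ends. Of their 251 distal regions, 14 lay higher and 9 lower. A distal region inside Vgf, a neuropeptide precursor, held 0.00, 0.96, 1.35 and 1.08 in S586E libraries, against 2.82, 2.11, 2.42 and 2.27 in vector libraries (−1.56 ± 0.29, adjusted p = 0.00106). The gene end of Pcsk1, a prohormone convertase, at chr13:75089611-75090110 over the promoter with TGACGTCA, held 1.09 and 0.89 in unstimulated and 3.10 and 2.56 in depolarized S586E libraries, against 1.99 and 1.94 in unstimulated and 3.38 and 4.17 in depolarized vector libraries (−0.96 ± 0.24, adjusted p = 0.00919). The call on Pcsk1 was lost without S586E depolarized replicate 2 (−0.82, adjusted p = 0.052) and without vector depolarized replicate 2 (−0.76, adjusted p = 0.0652). It was also lost with lists cut to 75000 summits (−0.64, adjusted p = 0.0742) and to 30000 (−0.37, adjusted p = 0.335). The gene ends of Gria1 (−0.82 ± 0.25, adjusted p = 0.0261), Gad1 (−0.96 ± 0.29, adjusted p = 0.0238) and Camk2a (−0.63 ± 0.19, adjusted p = 0.0291) passed by the summits. Each lost its call without S586E unstimulated replicate 1 (−0.49, −0.66 and −0.42, with adjusted p 0.152, 0.126 and 0.137), without vector unstimulated replicate 2 (adjusted p 0.0915, 0.129 and 0.0712) or without vector depolarized replicate 2 (adjusted p 0.0725, 0.0783 and 0.136). Gria1 also lost it without S586E depolarized replicate 2 or vector depolarized replicate 1, Gad1 without S586E depolarized replicate 1, and Camk2a without either S586E depolarized library or vector unstimulated replicate 1. Gad1 (adjusted p = 0.0505) and Camk2a (adjusted p = 0.244) did not pass by whole intervals.

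Eef1a1 encodes the translation elongation factor. At its gene end, at chr9:78480759-78481258, S586E libraries held 5.03, 5.61, 4.94 and 5.11, against 8.37, 8.47, 7.11 and 7.48 in vector libraries (−2.69 ± 0.18, adjusted p = 1.42e-08). Non-targeting libraries held 8.07, 7.54, 7.31 and 7.27, near the vector level, while wild-type (4.64 to 5.35) and S586A libraries (5.23 to 5.85) stood near S586E. It was the only region tested in which the 12 add-back libraries and the 8 other libraries were separated by more than 0.5. Whether the Smarcc2 constructs bear on reads at this gene was not tested. By whole intervals the change was −0.81 (adjusted p = 0.0246).

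**Figure D4:**
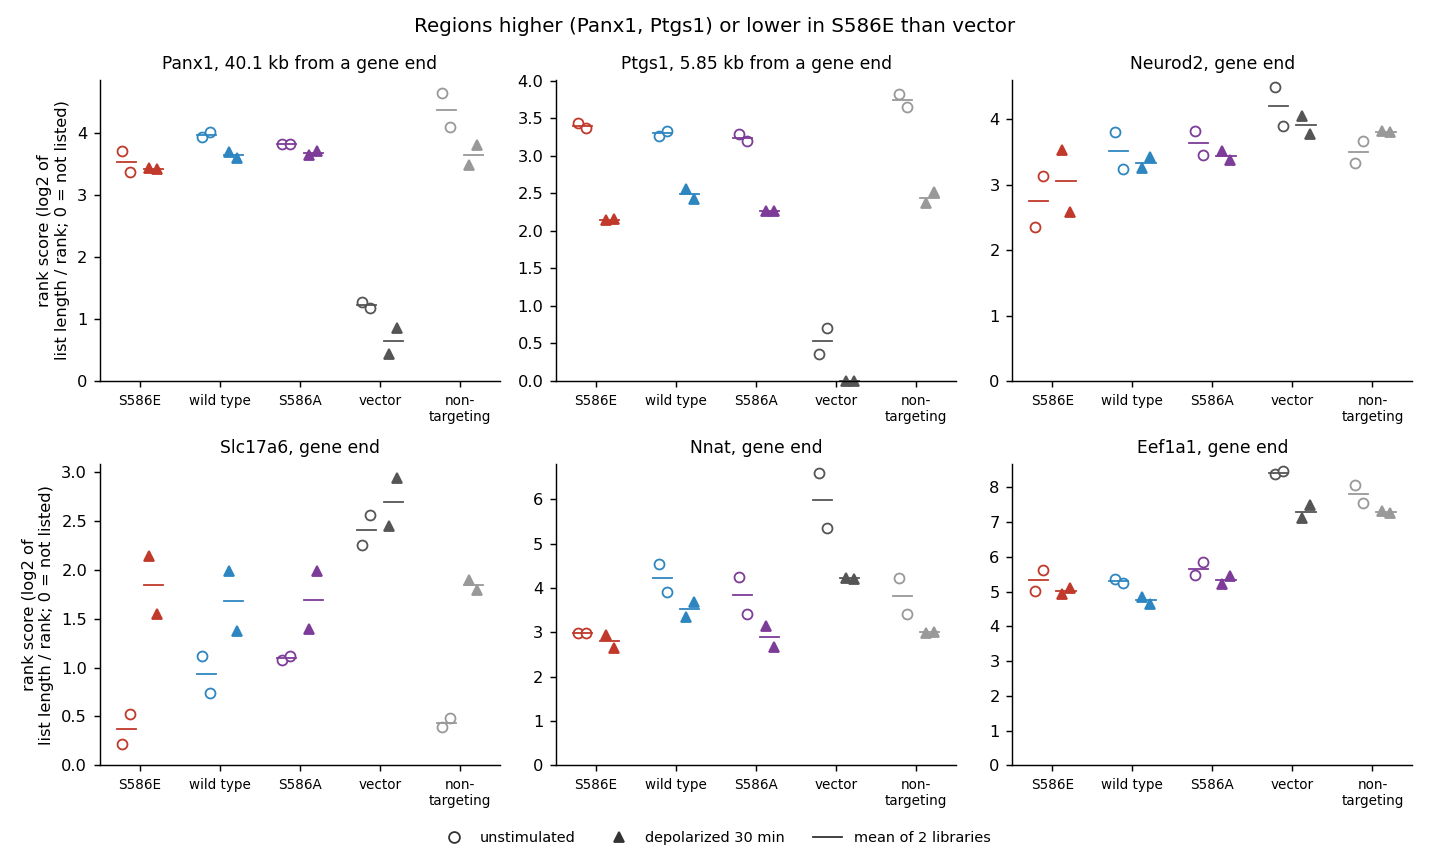
Rank score in each of 20 libraries at distal regions of Panx1 and Ptgs1 and at gene ends of Neurod2, Slc17a6, Nnat and Eef1a1, by genotype. Open circles are unstimulated and filled triangles depolarized libraries, and bars are means of 2. Panx1 and Ptgs1 are low in vector libraries alone, and at the Eef1a1 gene end the 3 add-back groups stand below vector and non-targeting libraries.

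Gene lists written for cell types, activity and synapses differed in how their gene ends and distal regions were called. Over both states and by the summits, 10 of 58 gene ends of synapse and excitability genes lay lower and none higher, and so did 9 of 52 gene ends of late activity genes and 5 of 37 of excitatory neuron genes, against 5.24% lower and 3.12% higher of all gene ends. Their median changes were −0.35, −0.24 and −0.23, against −0.10 for all gene ends. By both units the counts were 4, 5 and 5 lower and none higher. Among distal regions, the higher calls were 21 of 77 for the oligodendrocyte lineage and 21 of 64 for inhibitory neurons, against 14.6% of all distal regions. Progenitors (19 of 107) and astrocytes (21 of 134) lay near that share, and synapse and excitability (47 of 602), early activity (30 of 425), late activity (24 of 251), excitatory neurons (13 of 179), BAF subunits (14 of 204) and housekeeping genes (7 of 92) lay below it. Microglial (3 of 17) and vascular lists (8 of 37) rest on few regions. At gene ends, 5 of 24 astrocyte and 3 of 11 oligodendrocyte-lineage regions lay higher and none lower, but 1 of the 5 astrocyte regions held by both units. The lists were written from general knowledge, and Sox6 and some other genes are known in more than 1 of these cell types.

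**Figure D5:**
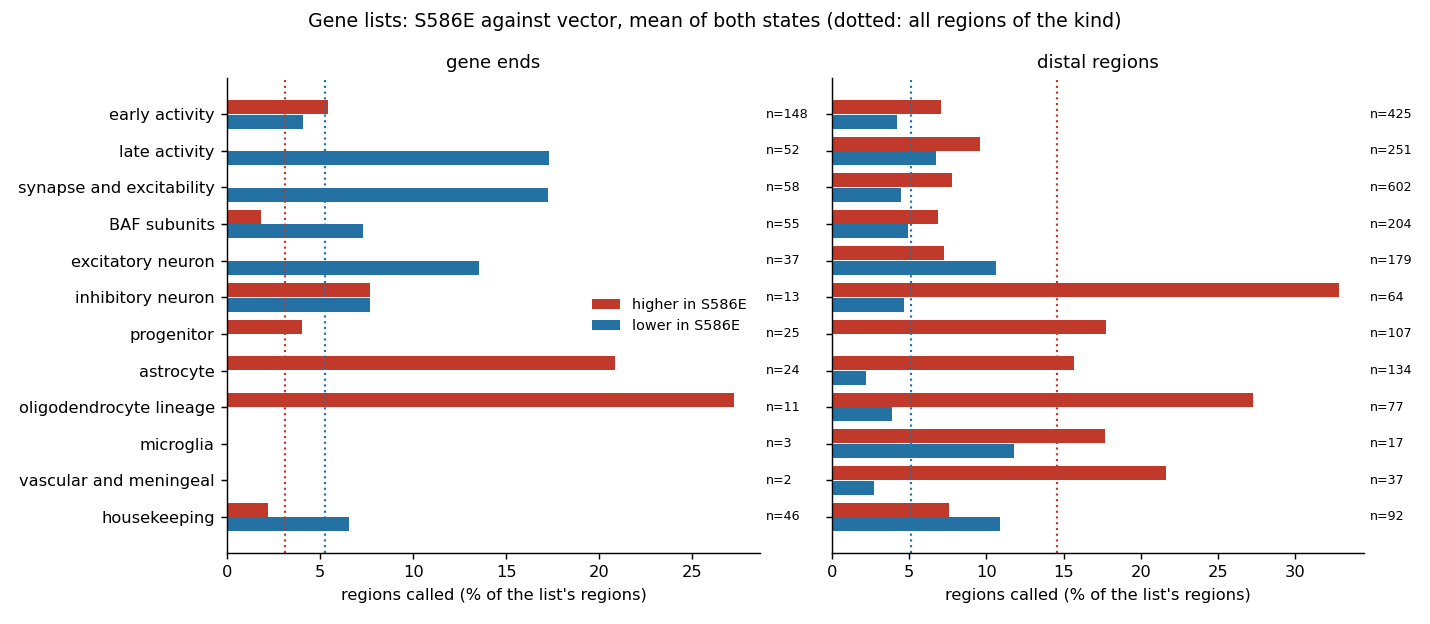
Percent of the tested gene ends (left) and distal regions (right) of each gene list that were called higher (red) or lower (blue) in S586E than in vector libraries over both states by the summits, with the number of regions at the right. Dotted lines give the same over all gene ends (3.12% and 5.24%) and all distal regions (14.6% and 5.13%). Microglial and vascular lists have 3 and 2 gene ends.

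Many gene ends of early activity genes were higher in depolarized than in unstimulated neurons of both genotypes. In S586E libraries 80 of 148 were higher and none lower, against 7.41% of all gene ends higher, and in vector libraries 92 were higher and 4 lower, against 7.2% of all gene ends higher. Within S586E libraries, 4794 regions were higher and 3719 lower in depolarized than in unstimulated neurons (10% called), and within vector libraries 4244 were higher and 7368 lower (13.6% called). At the gene end of Fosb, an AP-1 gene, the score was higher in depolarized than in unstimulated neurons by 10.41 in S586E and by 11.14 in vector libraries. At that of Junb, another AP-1 gene, S586E libraries held 8.55 and 8.98 when depolarized and 5.80 and 6.44 when unstimulated, and vector libraries held 8.50 and 9.48 when depolarized and 6.26 and 6.42 when unstimulated. At the gene end of Npas4, an activity-dependent transcription factor, S586E libraries held 8.46 and 6.35 when depolarized, against 7.58 and 8.56 in depolarized vector libraries, and no unstimulated library listed it. The groups overlapped at Npas4 and did not differ by the test.

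At the gene end of Fos, S586E libraries held 5.31 and 5.17 in unstimulated and 11.29 and 10.91 in depolarized neurons, against 4.93 and 5.24 in unstimulated and 10.32 and 9.57 in depolarized vector libraries. The change was 1.16 ± 0.33 in depolarized neurons (adjusted p = 0.0422), 0.15 ± 0.33 in unstimulated neurons (adjusted p = 0.817) and 0.65 ± 0.23 over both (adjusted p = 0.0516). The call in depolarized neurons was lost without S586E depolarized replicate 1 (0.96, adjusted p = 0.227), S586E depolarized replicate 2 (1.35, adjusted p = 0.1) or vector depolarized replicate 2 (0.78, adjusted p = 0.36), and by whole intervals (0.78, adjusted p = 0.146). Over both states, Egr1 passed (0.96 ± 0.33, adjusted p = 0.0464) but not without vector depolarized replicate 1 (0.60, adjusted p = 0.242), S586E depolarized replicate 2, S586E unstimulated replicate 2 or either vector unstimulated library, nor by whole intervals (adjusted p = 0.51). Junb (−0.22 ± 0.24), Nr4a1 (−0.24 ± 0.23), Arc (1.64 ± 0.60), Bdnf (−0.35 ± 0.21), Fosb (−0.85 ± 0.31) and Npas4 (−0.33 ± 0.31) did not pass. Arc had 5.34 and 5.11 in unstimulated S586E libraries, against 5.40 and 0.00 in unstimulated vector libraries, so 1 library set that change. Of 28 genes followed whatever their result, 27 had a gene-end region, 2 lay higher (Egr1 and Olig2), 5 lower (Camk2a, Gad1, Gria1, Grin2a and Neurod2) and 20 did not pass, against 3.12% higher and 5.24% lower of all gene ends. Of these 7, Olig2, Grin2a and Neurod2 kept their calls in all 22 settings, while Gad1 lost its call in 7, Gria1 in 9 and Egr1 and Camk2a in 13 each.

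Some depolarization-induced regions were weaker in S586E than in vector libraries. The gene end of Egr4, an immediate early zinc finger factor, held 9.03 and 6.70 in depolarized S586E libraries, against 10.28 and 10.15 in depolarized vector libraries (−2.35 ± 0.45, adjusted p = 0.00607). The change was −1.19 (adjusted p = 0.124) without S586E depolarized replicate 2 and −2.41 (adjusted p = 0.0519) without vector depolarized replicate 2, and Egr4 did not pass by whole intervals in that state (adjusted p = 0.125). A region 7.86 kb from Bin3, on the same chromosome as Egr3, held 1.47 and 0.91 in depolarized S586E libraries, against 3.11 and 2.61 in depolarized vector libraries (−1.67 ± 0.38, adjusted p = 0.0161), and a region inside Wfs1 held 0.26 and 0.19, against 2.79 and 1.82 (−2.08 ± 0.40, adjusted p = 0.0057). All 3 were listed at 0.00 in the unstimulated libraries of both genotypes. Bin3 lost its call without S586E depolarized replicate 2 (−1.39, adjusted p = 0.146) and either vector depolarized library (−1.42, adjusted p = 0.134, and −1.92, adjusted p = 0.0615), and Wfs1 without S586E depolarized replicate 2 (−2.05, adjusted p = 0.0513) or vector depolarized replicate 1 (−1.59, adjusted p = 0.0906). With lists cut to 30000 summits Bin3 (−0.07), Wfs1 (0.00) and Egr4 (−2.35, adjusted p = 0.0677) were not called. Wfs1 was also lost with 75000 summits (−0.66, adjusted p = 0.165), Bin3 with the 8 libraries fitted alone (adjusted p = 0.0511) and Egr4 in 1000 bp windows (−1.98, adjusted p = 0.0736). The S586E minus vector change differed between the states at 26 regions of all tested (0.0305% called, with 6676 at an unadjusted p under 0.05), and at 1 by both units (0.00117%). For none of Egr4, Bin3 and Wfs1 did it differ by that test (adjusted p 0.422 or more), and a region inside Ttyh1, open in both states, was lower in depolarized neurons by −1.80 ± 0.33 (adjusted p = 0.00477), or −1.27 (adjusted p = 0.0961) without S586E depolarized replicate 2. In unstimulated neurons, a region 14.5 kb from Ptpn11, a phosphatase gene, held 2.10 and 1.52 in S586E libraries, against 4.30 and 4.09 in vector libraries (−2.38 ± 0.29, adjusted p = 0.000137).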

How the data were processed

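ATAC-seq peak lists of 20 libraries of 18 days in vitro (10 groups of 2) were used, on mm10. The tools named by the submitters' processing notes are Bowtie2 as aligner, MACS2 as peak caller, Trim Galore, Picard, SAMtools, bedtools and FastQC, and versions are not given in the sources used here. The deposited lists, 1 per library, give for each summit a fold enrichment over background, a ratio computed by the authors' peak caller, and the −log10 p and −log10 q, also the authors' values. They depend on depth and were used to rank each library's summits. Low fold enrichments come in even steps, from which a background level in reads per base was worked out.

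Summits, windows and rank scores were made as described with the results, in Python 3.11.15 with pandas 2.3.3. Gene positions came from the RefSeq table of protein-coding genes. Scores were fitted with limma 3.58.1 in R 4.3.3, with 1 mean per group over 20 libraries and a variance trend, and the fit was tested on simulated data. Whole-list measures were compared by exact permutation within states. Since a rank is relative, a region can move because others moved. The members and gene lists were chosen with earlier results of these data known. Named regions were the largest called changes in each comparison and gene list with libraries of the 2 groups apart, and gene ends of 28 listed genes whatever their result. Most of the largest single-state changes came from a summit leaving a window, so the requirement of a call by both units, and the largest regions under it, were added after the data were seen. One of those added regions is not reported here.

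Same-numbered libraries deviated together only weakly (r = 0.0372 to 0.193 over 45 pairs of groups), and no label ties them, so the main fit has no replicate block. No library held counts, so no counting interval was computed. The Smarcc2 locus and the sex chromosomes were left out.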

Additional observations from a re-analysis of the deposited data

Results flagged for a closer look

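The S586E minus vector change differed between depolarized and unstimulated neurons at 26 regions by the interaction term of the limma fit (0.0305% of 85143 tested, 19 positive and 7 negative). By whole intervals 44 regions were called, and 1 region was called with the same sign by both units (0.00117%). The count was 358 without S586E unstimulated replicate 2, 46 without its replicate 1, 52 without vector unstimulated replicate 2 and 16 without S586E depolarized replicate 2. The balance of signs turned with lists cut to 75000 summits (145 positive and 228 negative), without vector unstimulated replicate 1 (10 and 20) and without its replicate 2 (23 and 29), and it was even without either S586E depolarized library (10 and 10, and 8 and 8).

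That region lay inside Dlgap1, a scaffold gene of excitatory synapses, at chr17:70388382-70388881, deep in the gene. S586E libraries held 0.61 and 1.14 when unstimulated and 2.31 and 2.15 when depolarized, against 2.17 and 2.05 when unstimulated and 0.66 and 1.23 when depolarized in vector libraries. The change was −1.23 ± 0.32 in unstimulated and 1.29 ± 0.32 in depolarized neurons, a difference of 2.52 ± 0.46 (adjusted p = 0.0408). The call was lost without any of 6 single libraries, with values of 2.24 to 2.60 and adjusted p of 0.0824 to 0.248. Wild-type, S586A and non-targeting libraries lay between 1.35 and 2.73 in both states.

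The largest difference among named regions was at the gene end of Egr3, an immediate early gene, at 4.99 ± 0.40 (adjusted p = 8.68e-07). S586E libraries held 1.47 and 1.52 when unstimulated and 4.35 and 4.79 when depolarized, against 1.89 and 1.94 when unstimulated and 0.00 in both depolarized vector libraries. By whole intervals the difference was 0.83 (adjusted p = 0.811) and in 1000 bp windows 0.42 (adjusted p = 0.802), so the value rests on where the summit was placed in the depolarized vector libraries.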

How the results depend on the processing

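Of 62 named and called regions, 13 kept their direction and call in all settings in which they were fitted (up to 22 settings). With lists cut to 30000 summits 47 lost their call, and with 75000 summits 13 did. Those lost with 30000 include Panx1, Ptgs1, Gabrb2, Neurod6, Smarca4, Brd7, Scrt1, Slc17a6, Tbp, Scn2a and Vgf. Called regions numbered 5310 in unstimulated, 4035 in depolarized neurons, 14799 over both states and 26 for the difference between states. They were 829, 177, 1235 and 15 with lists cut to 30000 summits, 1146, 667 and 9045 for the first 3 with the 8 libraries fitted alone, and 2724, 1779, 9522 and 1 when both units were required, which asks for 2 calls by construction. With 75000 summits they were 2104 in depolarized neurons, 7250 over both states (55.6% higher) and 373 for the difference. Whole intervals gave 2193 in depolarized neurons and 44 for the difference, windows of 1000 bp gave 9 for the difference, and centring each kind of region gave 2311 in depolarized neurons. The replicate block raised the counts to 8043 and 6490 in the 2 states. Leaving out 1 library gave 1206 to 9800, 527 to 5464, 8892 to 17833 and 16 to 358. Against wild type the count of 8 was 25 with the block, 2 with 30000 summits, 35 with whole intervals, 2 by both units and 28 without replicate 1 of unstimulated S586E, and against S586A 482 was 805 with the block, 55 with 30000 summits, 239 by both units and 393 without that library. The gene-end share differed by −3.53 points with 30000 summits, −1.51 with gene ends drawn at 500 bp, and −3.21 to −2.64 with 1 library left out, where intervals differed by 11782 to 40882 (11782 without replicate 2 of unstimulated S586E) and covered length by 0.0117 to 15.6 Mb (lowest without the same library). With 1 library left out, changes ranged from −0.47 to 0.02 for Junb, −0.86 to 0.19 for Npas4 and −0.53 to 0.04 for Nr4a1, none called. The causes of these shifts were not tested. Centring, both units and the tests against wild type and S586A without that library were added after the data were seen.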
